A study of Mus musculus with 12 samples.

Results

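The genes described here are 36 mouse genes of the ATF4 stress response and of amino acid transport. They were taken by symbol from a list of names, and the rule uses no measured value. The list itself was chosen with earlier results of these data known. All 36 were found among the 24411 symbols listed for each library, and all 36 reached at least 1 TPM in at least 2 of the 12 libraries, the filter used before testing. By role they were 3 eIF2 kinases, 7 transcription factors, 6 feedback genes acting on translation and growth, 3 genes of glutathione breakdown and secreted proteins, 10 amino acid transporters and 7 enzymes of amino acid metabolism. TPM gives a gene's share of all transcripts in a library, corrected for gene length and scaled to the same total in every library.

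RNA was taken from NR5A1(+) cells, the somatic cells of the fetal gonad that carry the nuclear receptor NR5A1. The mice were of the genotype Nr5a1-hCD271, which every group carried. The titles of the E11.5 libraries also carry the label WT, and those of the cultured libraries do not. Gonads of E10.8 embryos, excised with aorta, mesonephros and mesenchyme attached, were kept on filters for 19.2 h in high-glucose DMEM containing 10% horse serum. Deferoxamine (Dfo), which binds iron, was used at 150 µM. The cultured groups were Dfo XY with 3 libraries, control XY with 3 and control XX with 2, and each sex had 2 libraries at E11.5. Dfo was examined in XY gonads alone, and a Dfo XX group was not analysed here. The E11.5 samples carry the same protocol text as the cultured ones, so how they were collected is not settled. The labels do not say whether a library held 1 embryo or a pool, nor whether replicates came from separate embryos, so the p-values reflect spread among these libraries that may be technical.

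In the integrated stress response, several kinases sense different kinds of stress and phosphorylate the translation factor eIF2, which lowers general protein synthesis. The mRNA of the transcription factor ATF4 is translated more under these conditions, because short reading frames ahead of its coding sequence are then bypassed. ATF4 acts with C/EBP and CHOP proteins on genes that bring amino acids into the cell, make them, recharge tRNA and restore translation. The kinase encoded by Eif2ak1 is controlled by haem and is best known from red cell precursors. RNA levels do not report the phosphorylation of eIF2 or the translation of Atf4, and neither was measured here.

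The promoters of the members were searched for the core of the C/EBP-ATF response element, the sequence that ATF4 and its C/EBP partners bind in known target genes. RefSeq promoters on GRCm38.p6, running from 250 bases before to 50 bases after the start, were matched for 29 of the 36 members. The letters TGATGNAA, or TTNCATCA on the opposite strand, stood in 9 of those 29 members (31.0%), against 4.51% of 27025 genes and 3.97% of 32851 promoters. For 8 of the 9 members a window of 60 bases around the match is shown, 5′ to 3′ on the strand of the gene, with the match in capitals, because they are the members whose promoters carry these letters.
Atf3, chr1:191183410-191183469, minus strand: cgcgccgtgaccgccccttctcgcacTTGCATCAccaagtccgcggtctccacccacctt
Chac1, chr2:119351023-119351082, plus strand: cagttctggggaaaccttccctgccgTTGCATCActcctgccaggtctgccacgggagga
Trib3, chr2:152344013-152344072, minus strand: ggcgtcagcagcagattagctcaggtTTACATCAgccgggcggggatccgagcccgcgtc
Asns, chr6:7693199-7693258, minus strand: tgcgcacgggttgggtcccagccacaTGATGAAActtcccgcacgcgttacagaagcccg
Nupr1, chr7:126625547-126625606, minus strand: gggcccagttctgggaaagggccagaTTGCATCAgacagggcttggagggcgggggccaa
Slc1a4, chr11:20332684-20332743, minus strand: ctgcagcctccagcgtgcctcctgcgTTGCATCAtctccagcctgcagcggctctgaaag
Pycr1, chr11:120643818-120643877, minus strand: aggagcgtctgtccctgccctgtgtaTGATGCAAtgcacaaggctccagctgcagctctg
Got1, chr19:43524674-43524733, minus strand: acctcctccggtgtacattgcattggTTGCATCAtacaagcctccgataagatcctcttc

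The promoter of Slc7a11, the cystine importer, held 2 matches and is shown whole. It is given because the RNA of this gene, like that of Got1 and Pycr1, was not called under Dfo.
Slc7a11, chr3:50443564-50443863, minus strand: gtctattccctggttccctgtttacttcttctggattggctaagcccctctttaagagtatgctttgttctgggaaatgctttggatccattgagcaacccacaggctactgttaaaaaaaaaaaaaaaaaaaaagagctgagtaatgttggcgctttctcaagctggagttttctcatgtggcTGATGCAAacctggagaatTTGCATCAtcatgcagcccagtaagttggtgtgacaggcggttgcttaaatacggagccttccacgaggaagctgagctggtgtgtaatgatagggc
Of the 9 members with the letters, 6 rose under Dfo and 3 (Slc7a11, Got1 and Pycr1) did not pass the test. Of the 20 matched members without them, 14 rose and 6 did not. The core of the hypoxia response element, ACGTG or CACGT, stood in 9 of the 29 members (31.0%), against 21.8% of genes. A match describes letters in this window and is not a measured binding site.

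Facts of the libraries that touch the results are these. Replicates 1 and 2 of Dfo XY held 13.57 and 24.56 TPM of Xist, the RNA of X inactivation, against at most 0.90 TPM in every other XY library, so counts on Dfo are also given without them. Replicates 1 and 2 of a cultured XY group were nearer to each other than to replicate 3. The SD over genes of their log2 difference was 0.345 in Dfo XY and 0.333 in control XY, against 0.513 to 0.547 for the pairs with replicate 3. Whether they are independent cultures is not given by the labels. Control XY replicate 3 also had the lowest erythroid sum of its group, 302.25 TPM against 2104.13 and 2442 TPM. The RNA of RNase P, Rpph1, took 19.5% to 23.6% of all TPM in Dfo XY and 15.3% to 20.3% in control XY, and 6.96% to 7.20% in control XX. The median change of all genes was -0.17 on the log2 scale in Dfo XY against control XY, and -0.05 after median-of-ratios scaling. Of all 16133 genes tested, 803 were called higher and 1695 lower in Dfo XY, and median-of-ratios scaling gave 1519 and 1022. The defining markers of NR5A1 gonad cells (Nr5a1, Wt1, Gata4, Lhx9, Emx2 and Cbx2) were above 0 in every library. Their summed level was 491.76 to 557.81 TPM in Dfo XY and 648.27 to 794.19 TPM in control XY, and 4 of the 6 were called lower in Dfo XY. Erythroid markers summed to 1314.48 to 3091.34 TPM in Dfo XY and 302.25 to 2442 TPM in control XY, macrophage markers to 94.11 to 144.24 TPM and 59.87 to 119.82 TPM, and none of these 15 markers was called. Of the germ cell, mesonephric, mesenchyme and neural markers 1, 2, 2 and 2 were called lower, 1 neural marker was called higher, and no endothelial marker was called. In bulk RNA, fewer cells of a type and less RNA per cell cannot be told apart, and the part these differences play in the results was not tested.

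Dfo raised most members. In Dfo XY against control XY, 22 of 36 members were called higher and 2 lower at an adjusted p below 0.05, against 4.98% and 10.5% of all genes tested (limma). The median log2 change was 0.93 over the members and -0.17 over all genes. All 7 transcription factors rose, with a median log2 change of 1.68, as did 5 of the 6 feedback genes (median 1.79). Of the 10 transporters 6 rose, and of the 7 enzymes 2. The 3 Dfo libraries stood above the 3 control libraries without overlap for 27 members, against 11.6% of all genes, and below them for 2, against 26.5%. Together the 36 members summed to 3163.9, 3372.47 and 2889.58 TPM in Dfo XY, against 1327.54, 1277.77 and 1363.72 TPM in control XY. Without the Dfo libraries that held Xist, 16 members were called higher and 0 lower, on 1 Dfo library that is assumed to vary like the other groups. The calls that ended were those of Eif2ak1, Cebpg, Nupr1, Slc38a1, Slc38a2, Slc6a9, Asns and Gpt2 (adjusted p = 0.0534 to 0.502). With replicates 1 and 2 averaged in each group, 17 were called higher and 0 lower, and median-of-ratios scaling gave 25 and 0.

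**Figure D1:**
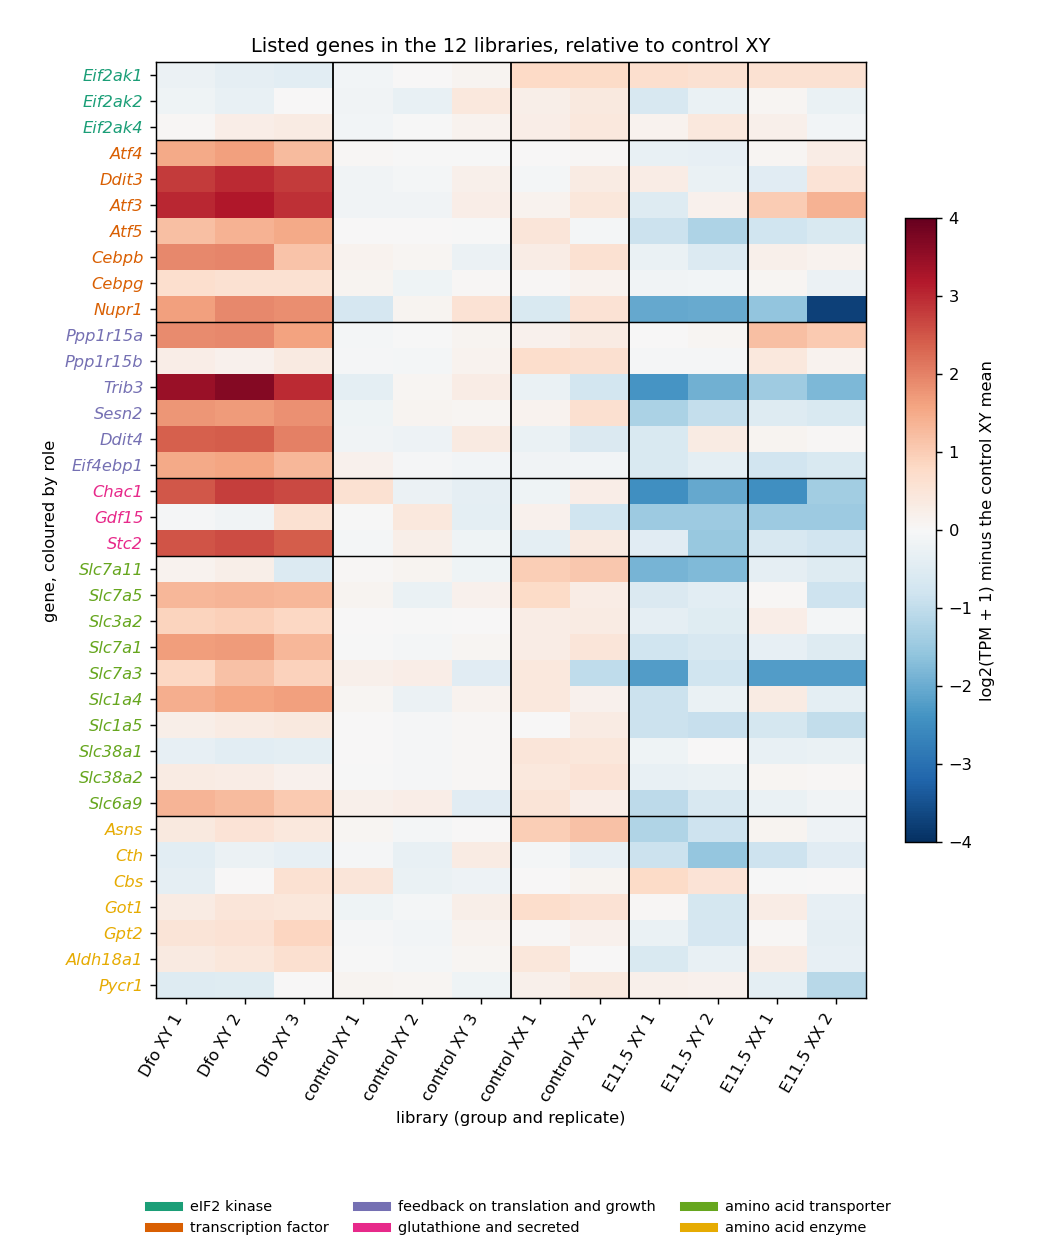
Log2(TPM + 1) of the 36 members in the 12 libraries, as the difference from each gene's mean over the control XY libraries. Members are in rows by role and libraries in columns by group. Colours run from -4 to 4. The 3 Dfo XY columns lie above the 3 control XY columns for 27 members, and the kinase Eif2ak1 and the transporter Slc38a1 run the other way.

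None of the 3 kinases at the head of the pathway was called higher (0 of 3 at an unadjusted p below 0.05 in limma). Eif2ak1, the haem-regulated kinase, had 32.54, 29.68 and 28.53 TPM in Dfo XY, against 35.58, 39.01 and 41.62 TPM in control XY. All 3 Dfo libraries lay below all 3 control libraries. The log2 change was -0.35 ± 0.10 (SE; limma, adjusted p = 0.0318), which is -0.17 relative to the median of all genes. The call ended without control XY replicate 2 or 3 or Dfo XY replicate 2 or 3 (adjusted p = 0.0751 to 0.101), and under median-of-ratios scaling (-0.20, adjusted p = 0.201). Eif2ak2, the kinase of double-stranded RNA, and Eif2ak4, the kinase of uncharged tRNA, overlapped between groups, with log2 changes of -0.15 ± 0.20 and 0.21 ± 0.15 (adjusted p = 0.655 and 0.369). Eif2ak3, the kinase of endoplasmic reticulum stress, is not a member. It had 24.85, 20.99 and 25.21 TPM in Dfo XY, against 18.15, 15.91 and 19.29 TPM in control XY, without overlap, and did not pass the test (0.39 ± 0.15, adjusted p = 0.0927).

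Atf4, the central transcription factor, had the highest TPM of the members in both groups. It stood at 624.51, 686.45 and 525.25 TPM in Dfo XY, against 226.12, 214.07 and 214.09 TPM in control XY, which is 612 ± 81.3 and 218 ± 6.95 TPM (SD, n = 3 each). The rise was 2.78-fold, a log2 change of 1.48 ± 0.10 (limma, adjusted p = 2.06e-06). Folds here are 2 to the power of the change in log2(TPM + 1), so the change of a weakly expressed gene is understated.

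Larger changes stood among the factors that act with ATF4. Ddit3, which encodes CHOP, a C/EBP partner linked to cell death under prolonged stress, had 236.06, 271.36 and 237.67 TPM in Dfo XY, against 30.54, 31.84 and 38.49 TPM in control XY (log2 change 2.85 ± 0.22, 7.22-fold, adjusted p = 5.58e-06). Atf3, a stress-induced factor of the ATF family, had 86.51, 98.11 and 81.14 TPM in Dfo XY, against 8.88, 8.83 and 12.18 TPM in control XY (3.04 ± 0.20, 8.23-fold, adjusted p = 1.35e-06). The lowest Dfo library was several times the highest control library for each. Cebpb, a C/EBP factor that can pair with ATF4, had 143.03, 145.55 and 81.95 TPM in Dfo XY, against 40.46, 38.99 and 31.38 TPM in control XY (1.68 ± 0.20, adjusted p = 0.000144). Its Dfo replicate 3 lay well below the other Dfo libraries and still above every control library.

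Atf5, a factor whose mRNA is translated under stress as that of Atf4 is, had 63.67, 73.52 and 80.13 TPM in Dfo XY, against 27.53, 27.39 and 26.83 TPM in control XY (1.37 ± 0.16, adjusted p = 0.000137). Nupr1, a small stress-induced chromatin protein, had 40.28, 48.66 and 46.72 TPM in Dfo XY, against 7.35, 13.10 and 18.51 TPM in control XY (1.80 ± 0.47, adjusted p = 0.0227). The groups did not overlap for either gene, but the control values of Nupr1 were widely spread, and its call ended without control XY replicate 1 or 2 or any of the Dfo libraries (adjusted p = 0.0521 to 0.0947). Cebpg, a C/EBP partner of ATF4 with no activation domain of its own, rose the least of the factors, with 23.58 to 24.51 TPM in Dfo XY and 13.46 to 16.45 TPM in control XY (0.63 ± 0.14, adjusted p = 0.00926, and 0.0502 without control XY replicate 2).

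Feedback genes rose with the factors. Trib3, a pseudokinase that ATF4 and CHOP induce and that dampens their action, had the largest log2 change of the members. It had 90.10, 104.76 and 64.83 TPM in Dfo XY, against 5.37, 7.91 and 9.27 TPM in control XY (3.36 ± 0.26, 10.3-fold, adjusted p = 4.27e-06), rank 16 of the 16133 genes by change. Ppp1r15a, which encodes GADD34, the inducible subunit that directs a phosphatase to eIF2, had 176.34, 180.92 and 146.83 TPM in Dfo XY, against 44.47, 46.34 and 51.40 TPM in control XY (1.80 ± 0.11, adjusted p = 5.46e-07). It had the smallest adjusted p of the members. Its constitutive counterpart Ppp1r15b had 50.18 to 58.34 TPM in Dfo XY and 42.43 to 49.25 TPM in control XY, without overlap (0.27 ± 0.11, adjusted p = 0.121). Ppp1r15b was called under median-of-ratios scaling (0.42, adjusted p = 0.00516).

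The members that restrain mTORC1 or cap-dependent translation also rose. Sesn2, a leucine sensor that holds mTORC1 back, had 64.88, 62.43 and 67.69 TPM in Dfo XY, against 16.12, 19.87 and 19.18 TPM in control XY (1.77 ± 0.15, adjusted p = 9.96e-06). Ddit4, an inhibitor of mTORC1 that low oxygen also induces, had 123.40, 125.52 and 95.38 TPM in Dfo XY, against 20.35, 19.68 and 29.05 TPM in control XY (2.28 ± 0.22, adjusted p = 3.36e-05). Neither gene overlapped between groups. Eif4ebp1, the repressor of cap-dependent translation that mTORC1 switches off, had 344.11, 360.99 and 301.58 TPM in Dfo XY, against 133.80, 116.92 and 110.32 TPM in control XY (1.47 ± 0.11, adjusted p = 2.75e-06). Every Dfo library was above every control library.

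Chac1, an enzyme that breaks down glutathione, had 29.53, 35.93 and 33.29 TPM in Dfo XY, against 7.32, 3.64 and 3.27 TPM in control XY (2.62 ± 0.33, 6.17-fold, adjusted p = 0.00022). Stc2, a secreted glycoprotein, had 98.80, 105.05 and 91.10 TPM in Dfo XY, against 15.54, 19.48 and 14.41 TPM in control XY (2.52 ± 0.25, 5.72-fold, adjusted p = 3.93e-05). The groups were far apart for both. Gdf15, a secreted stress hormone often used as a readout of this response, stood at 1.47 to 3.13 TPM in Dfo XY and 1.10 to 2.63 TPM in control XY, with overlap (0.14 ± 0.34, adjusted p = 0.829).

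**Figure D2:**
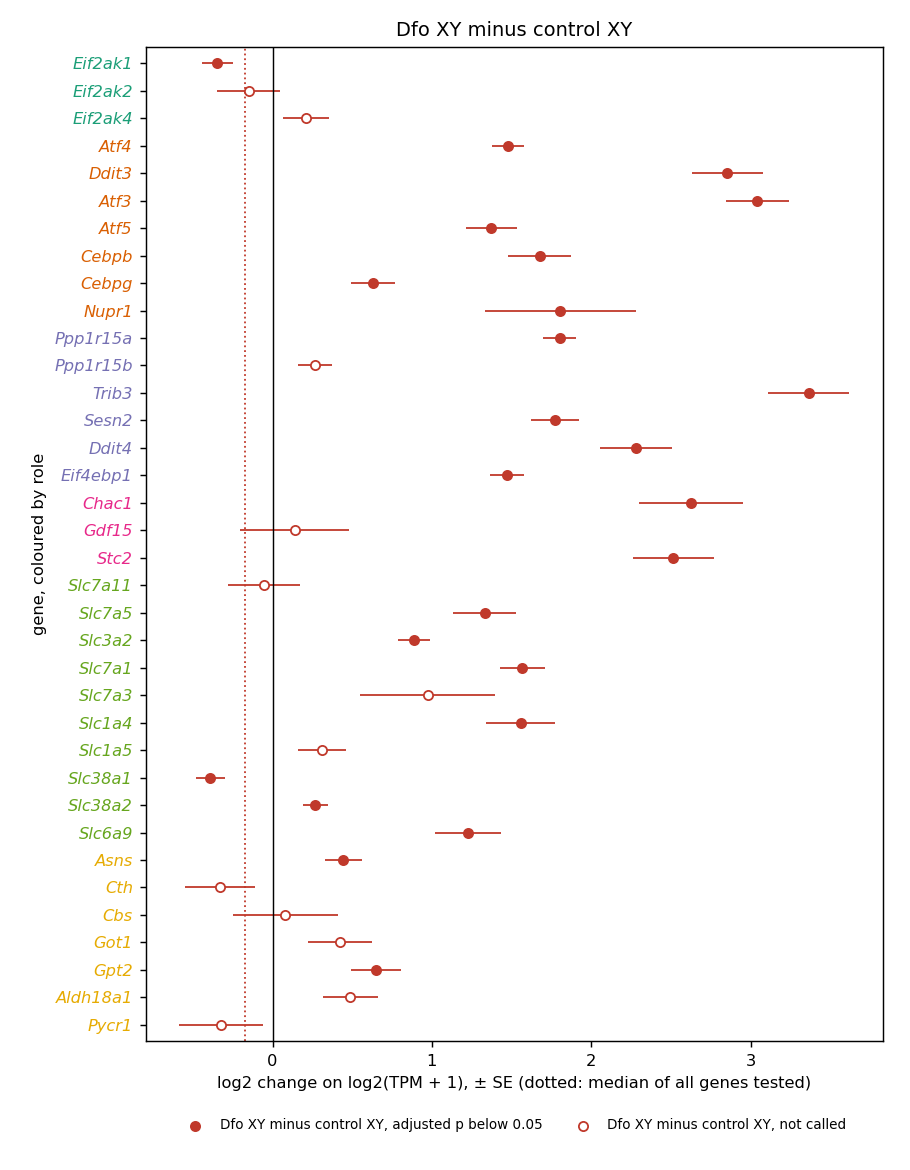
Log2 change of each member in Dfo XY against control XY, with its standard error from limma, grouped by role. Trib3 is the largest at 3.36, and Eif2ak1 and Slc38a1 are the called members below 0.

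The transporters divided. Slc7a5 and Slc3a2 encode the light and heavy chains of the exchanger of large neutral amino acids, and both rose. Slc7a5 had 88.11, 89.74 and 87.59 TPM in Dfo XY, against 37.42, 28.45 and 38.76 TPM in control XY (1.33 ± 0.20, adjusted p = 0.000827). Slc3a2, which also pairs with the cystine importer, had 119.83 to 131.62 TPM in Dfo XY and 66.15 to 68.25 TPM in control XY (0.89 ± 0.10, adjusted p = 7.93e-05). The Dfo libraries of both genes lay close together and above all controls. Slc7a1, which imports arginine and lysine, had 53.85, 55.66 and 42.54 TPM in Dfo XY, against 16.22, 15.57 and 17.25 TPM in control XY (1.57 ± 0.14, adjusted p = 1.49e-05). Slc1a4, a transporter of serine and alanine, had 30.81, 33.37 and 34.76 TPM in Dfo XY, against 11.28, 8.75 and 11.81 TPM in control XY (1.56 ± 0.22, adjusted p = 0.000487). Slc6a9, the glycine transporter, had 35.16, 32.41 and 27.95 TPM in Dfo XY, against 15.18, 15.69 and 9.13 TPM in control XY (1.23 ± 0.21, adjusted p = 0.00181, and 0.0923 without the Dfo libraries that held Xist). No Dfo library of these overlapped a control library.

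The remaining transporters did not move one way. Slc38a1, a carrier of glutamine, fell, with 40.33, 37.90 and 38.54 TPM in Dfo XY, against 51.43, 50.09 and 52.53 TPM in control XY, and no overlap. Its log2 change was -0.39 ± 0.09 (adjusted p = 0.0124), or -0.22 relative to the median of all genes, and the call ended without Dfo XY replicate 2 (0.0534) and under median-of-ratios scaling (-0.24, adjusted p = 0.0848). Its paralog Slc38a2, which responds to amino acid shortage, rose by 0.27 ± 0.08 (adjusted p = 0.0382), and that call ended without control XY replicate 1 or 2 or Dfo XY replicate 1 or 2 (0.116 to 0.143). Slc1a5, the exchanger of glutamine, had 18.04 to 20.50 TPM in Dfo XY and 14.81 to 15.81 TPM in control XY (0.31 ± 0.15, adjusted p = 0.186). It was called under median-of-ratios scaling (0.46, adjusted p = 0.0356). Slc7a3, a second carrier of arginine and lysine, had 7.52 to 9.64 TPM in Dfo XY and 2.44 to 4.70 TPM in control XY (0.97 ± 0.42, adjusted p = 0.145).

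Slc7a11, the light chain of the cystine and glutamate exchanger and a known ATF4 target, did not pass the test. It had 9.21, 9.96 and 5.27 TPM in Dfo XY, against 8.60, 8.88 and 7.27 TPM in control XY, and the groups overlapped. The log2 change was -0.05 ± 0.22 (adjusted p = 0.9). It was -0.56 without the Dfo libraries that held Xist (adjusted p = 0.336), 0.08 under median-of-ratios scaling, 0.03 with the 50 most abundant genes left out and -0.21 to 0.20 when 1 library was left out. Its heavy chain Slc3a2 rose in the same libraries.

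Of the enzymes, Asns and Gpt2 rose. Asns, asparagine synthetase, had 149.33, 167.25 and 152.88 TPM in Dfo XY, against 121.28, 107.47 and 115.56 TPM in control XY, without overlap (0.44 ± 0.12, 1.36-fold, adjusted p = 0.0236). Gpt2, which makes alanine and 2-oxoglutarate in mitochondria, had 39.51 to 51.00 TPM in Dfo XY and 25.64 to 30.76 TPM in control XY (0.65 ± 0.16, adjusted p = 0.0152). Both calls ended when certain libraries were left out, Asns without control XY replicate 2 or 3 or Dfo XY replicate 2 (0.0528 to 0.0951) and Gpt2 without control XY replicate 1 or 2 or Dfo XY replicate 3 (0.0525 to 0.0620). Aldh18a1, which starts proline synthesis, and Got1, the cytosolic aspartate aminotransferase, were higher in every Dfo library but did not pass the test (0.49 ± 0.17 and 0.42 ± 0.20, adjusted p = 0.0766 and 0.179). Under median-of-ratios scaling Aldh18a1 was called (0.64, adjusted p = 0.0136). Aldh18a1 was called without either E11.5 XX library (adjusted p = 0.0381 and 0.0388). Cth and Cbs of cysteine synthesis and Pycr1 of proline synthesis overlapped between groups, with Cbs at 0.27 to 1.49 TPM in Dfo XY and 0.36 to 1.28 TPM in control XY.

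**Figure D3:**
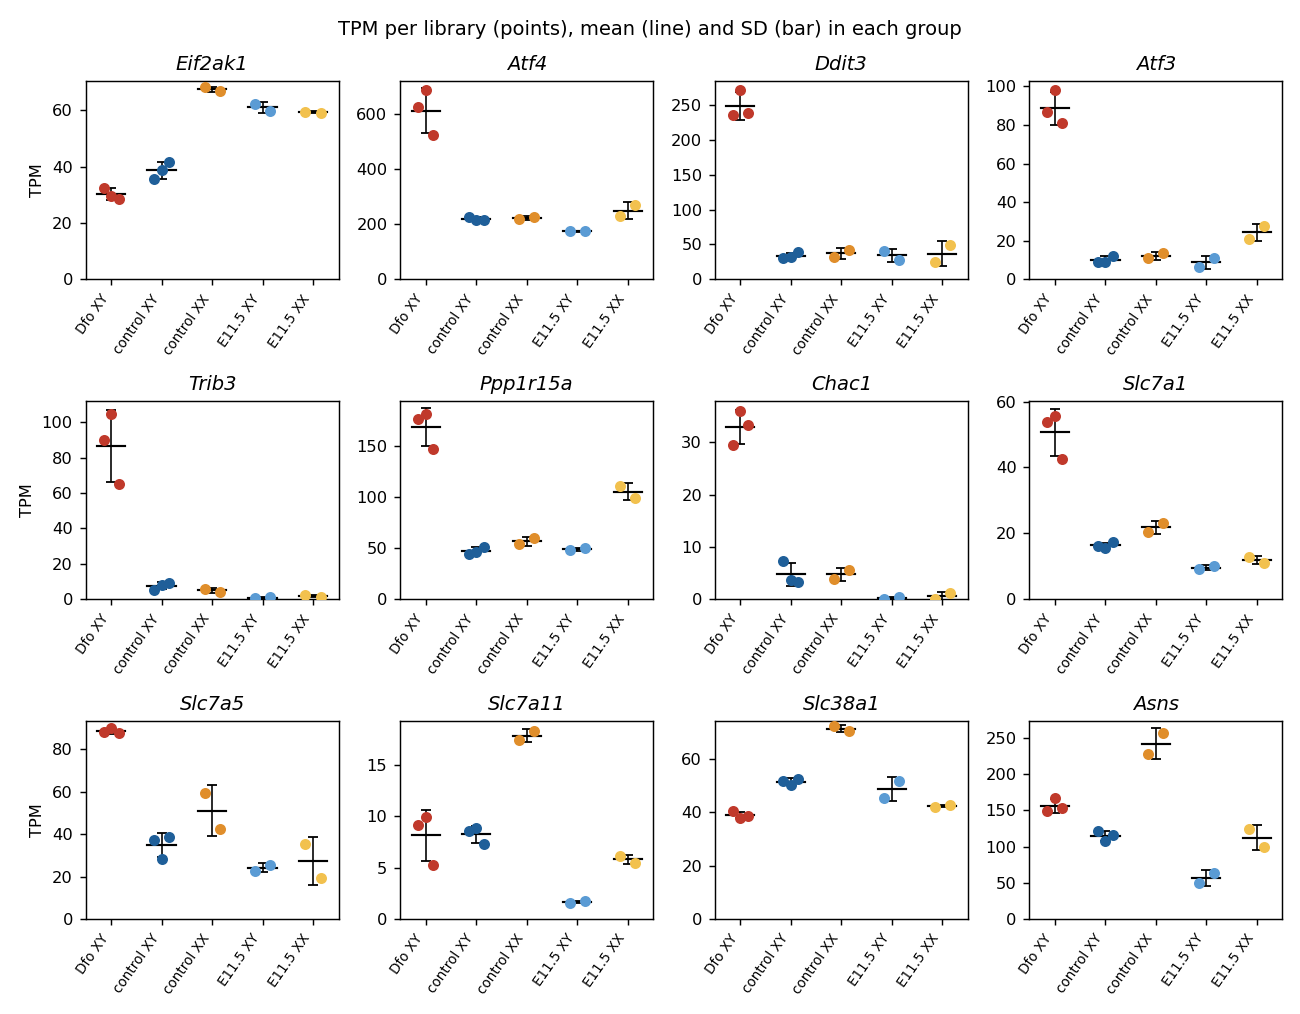
TPM of selected members in each library (points) with the group mean and standard deviation, for Dfo XY, control XY, control XX, E11.5 XY and E11.5 XX. Atf4 averages 612 TPM in Dfo XY and 218 TPM in control XY, and Slc7a11 is highest in control XX at 17.41 and 18.31 TPM.

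Other genes of the pathway, outside the members, were counted in the same comparison. Their lists were chosen with earlier results of these data known, so the counts are a description and no independent support. Of 24 further targets of ATF4 or CHOP, 18 rose and 0 fell, against 4.98% higher and 10.5% lower over all genes. Their median log2 change was 0.77, and that of all genes was -0.17. Ero1l, an oxidase of the endoplasmic reticulum that CHOP and low oxygen both induce, had 306.08, 292.66 and 176.66 TPM in Dfo XY, against 11.75, 13.99 and 15.63 TPM in control XY (17.1-fold, adjusted p = 1.8e-07). Vldlr, a lipoprotein receptor, rose by 1.81 ± 0.15, and Cars, which charges cysteine tRNA, by 1.31 ± 0.12 (adjusted p = 9.64e-06 and 1.17e-05). Of 16 other CREB, ATF and C/EBP family factors and their partners, 8 rose and 1 fell, against the same shares of all genes. Cebpd rose by 1.08 ± 0.16 and Maff by 2.59 ± 0.39, while Atf6b, a membrane-bound factor of the unfolded protein response, fell by 0.72 on the log2 scale (adjusted p = 0.000634, 0.000826 and 0.00129).

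Genes of translation and of amino acid sensing were counted as well. Of 15 genes of eIF2, its exchange factor eIF2B, the remaining kinase and related factors such as Impact and Gcn1l1, 3 rose and 2 fell (median -0.14). Over all genes the shares were 4.98% higher and 10.5% lower. Eif2s2, the beta subunit of eIF2, rose by 0.61 ± 0.14 and Impact, an inhibitor of Eif2ak4 activation, by 0.41 ± 0.11, while Gcn1l1, an activator of Eif2ak4, fell by 0.40 on the log2 scale (adjusted p = 0.0135, 0.0220 and 0.0353). Of 25 genes of amino acid sensing and mTORC1, 1 rose and 2 fell, which is near those shares of all genes. These were Rragc, a GTPase that recruits mTORC1 to lysosomes (0.35 ± 0.10), Tsc2, a brake on mTORC1 (-0.40 ± 0.11), and Sesn3, a relative of Sesn2 (-0.45 ± 0.14). Of 23 other amino acid transporters tested, 0 were called in either direction by limma, and 3 were higher and 3 lower at an unadjusted p below 0.05.

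Across the 12 libraries, the genes whose log2(TPM + 1) followed Atf4 most closely were not members. The ranking held 10513 genes averaging 5 TPM or more, with predicted-gene symbols (Gm with a number, or ending in Rik) left out. Of these the 10 nearest were Ero1l (r = 0.976), Gpi1, Egln3, Bsg, Bnip3, Vegfa, Slc2a1, Fam117b, P4ha2 and Cpox (r = 0.965). The nearest members were Atf3 (r = 0.962, rank 13) and Ddit3 (r = 0.961, rank 14), and Slc7a11 stood at r = 0.268. These correlations are a description, since all the genes share the same libraries and the same Dfo contrast.

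Culture was accompanied by higher levels of many members in gonads without Dfo. In control XY culture against E11.5 XY, 13 of 36 members were called higher and 1 lower, against 2.62% and 3.04% of all genes tested (limma), and the median log2 change was 0.46 over the members and -0.11 over all genes. In control XX culture against E11.5 XX, 14 were called higher and 2 lower, against 7.36% and 1.71% of all genes, with medians of 0.49 and 0.12. Cultured XY libraries stood above all E11.5 XY libraries for 23 members and below them for 3, against 13.9% and 26.2% of all genes. In XX this held for 28 and 4 members, against 34.7% and 13.8%. The number called depended on the fit, with 9 in XY and 4 in XX when only the groups compared entered it. Markers of other cells moved too. In XY culture 2 of 7 macrophage and 2 of 6 neural markers were called higher and 2 of 6 endothelial markers lower. In XX culture 5 endothelial, 3 erythroid, 1 germ cell and 1 mesonephric marker were called lower, and 1 gonad and 1 macrophage marker higher. Endothelial markers summed to 63.88 to 129.29 TPM in control XY and 197.77 to 198.1 TPM in E11.5 XY, and to 100.45 to 110 TPM in control XX and 257.25 to 316.34 TPM in E11.5 XX. Macrophage markers summed to 59.87 to 119.82 TPM in control XY and 20.72 to 34.44 TPM in E11.5 XY, and neural markers to 55.82 to 139.68 TPM and 23.39 to 28.06 TPM. The part of these cells in the results was not tested. The cultured gonads started at E10.8 and were kept for 19.2 h, so culture and any difference in age from E11.5 cannot be told apart.

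Asns had the smallest adjusted p in each sex. It had 121.28, 107.47 and 115.56 TPM in control XY culture, against 49.01 and 63.94 TPM in E11.5 XY (1.02 ± 0.13, adjusted p = 0.000889). In XX it had 227.33 and 256.89 TPM in culture, against 124.67 and 99.92 TPM at E11.5 (1.11 ± 0.14, adjusted p = 0.000712). All cultured libraries lay above the E11.5 libraries of the same sex. Slc7a11 had 8.60, 8.88 and 7.27 TPM in control XY culture, against 1.55 and 1.71 TPM in E11.5 XY (1.81 ± 0.25, adjusted p = 0.00155). In XX it had 17.41 and 18.31 TPM in culture, against 6.14 and 5.49 TPM at E11.5 (1.47 ± 0.28, adjusted p = 0.00677, and 0.0575 without E11.5 XX replicate 2). The cystine importer, not called under Dfo, was called higher in culture in both sexes.

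Sesn2, Trib3 and Chac1 were called higher in XY culture, and of these Sesn2 and Trib3 are feedback genes. Sesn2 had 16.12, 19.87 and 19.18 TPM in control XY culture, against 7.10 and 8.91 TPM in E11.5 XY (1.11 ± 0.17, adjusted p = 0.00328). In XX it had 20.35 and 28.80 TPM in culture, against 12.55 and 11.79 TPM at E11.5 (0.94 ± 0.19, adjusted p = 0.00891). The XX call ended without control XX replicate 2 or E11.5 XX replicate 2 (0.0703 and 0.0674). Trib3 had 5.37, 7.91 and 9.27 TPM in control XY culture, against 0.64 and 1.21 TPM in E11.5 XY (2.13 ± 0.29, adjusted p = 0.00121). In XX, Trib3 rose by 1.12 ± 0.31 (adjusted p = 0.0433), a call that ended with the replicate number as a block (0.0584) and in 7 of the 12 fits that left out a library, up to 0.244 without E11.5 XX replicate 2. Chac1 had 7.32, 3.64 and 3.27 TPM in control XY culture, against 0.00 and 0.33 TPM in E11.5 XY (2.25 ± 0.37, adjusted p = 0.00483). In XX, Chac1 had 3.91 and 5.66 TPM in culture, against 0.00 and 1.10 TPM at E11.5, and was also called higher. That call ended without control XX replicate 2 or E11.5 XX replicate 1, and with only the groups compared in the fit. Both genes were near the bottom of the scale at E11.5, and Gdf15 was listed at 0 in all 4 E11.5 libraries.

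Some members were lower in culture. Eif2ak1 had 35.58, 39.01 and 41.62 TPM in control XY culture, against 62.42 and 59.70 TPM in E11.5 XY (-0.65 ± 0.11, adjusted p = 0.00593, and 0.0587 without E11.5 XY replicate 1). This was the called decrease in XY, and in XX the gene was not called (0.18 ± 0.12, adjusted p = 0.389). Erythroid markers summed to 302.25 to 2442 TPM in control XY and 2460.72 to 3131.02 TPM in E11.5 XY, and to 232.63 to 252.38 TPM in control XX and 1275.09 to 1791.27 TPM in E11.5 XX. Of the 8 erythroid markers, 0 were called in XY and 3 were called lower in XX. The part of these cells in the result was not tested.

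In XX the decreases were Ppp1r15a and Atf3. Ppp1r15a had 53.58 and 59.67 TPM in control XX culture, against 110.60 and 99.23 TPM in E11.5 XX (-0.88 ± 0.13, adjusted p = 0.00172). Atf3 had 10.85 and 13.77 TPM in culture, against 21.16 and 27.44 TPM at E11.5 (-0.92 ± 0.24, adjusted p = 0.0331). The Atf3 call ended without either control XX library, without E11.5 XX replicate 2 or without Dfo XY replicate 1 (0.0528 to 0.229). Slc38a1 was called higher, with 72.06 and 70.25 TPM in control XX culture, against 41.98 and 42.51 TPM in E11.5 XX (0.74 ± 0.11, adjusted p = 0.002). Slc1a5 had 15.68 and 19.32 TPM in culture, against 9.10 and 7.32 TPM at E11.5 (1.01 ± 0.18, adjusted p = 0.00549, and 0.0524 without E11.5 XX replicate 2). Neither transporter overlapped between groups.

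Among the other pathway lists, further targets of ATF4 or CHOP had 3 of 24 called higher in XY culture and 11 of 24 in XX culture, with none lower in either. The share of all genes called higher was 2.62% in XY and 7.36% in XX, and a difference between the sexes was not tested for this list. In XY these were led by Shmt2, a mitochondrial enzyme that splits serine (0.87 ± 0.12), and Psat1 of serine synthesis (1.12 ± 0.16). In XX, Shmt2 rose by 1.03 ± 0.13 and Aars, which charges alanine tRNA, by 0.88 ± 0.12. Of the 15 genes of eIF2, eIF2B and related factors, 1 was called higher and 1 lower in XY, and 3 and 0 in XX. Impact rose in both, by 0.88 ± 0.12 in XY and 1.70 ± 0.13 in XX. Of the 25 genes of amino acid sensing and mTORC1, 3 were called higher in XY and 7 in XX, and 0 lower in either. Rragd, a GTPase related to Rragc, rose by 1.47 ± 0.15 in XY and 1.39 ± 0.17 in XX. The share of all genes called lower was 3.04% in XY and 1.71% in XX.

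**Figure D4:**
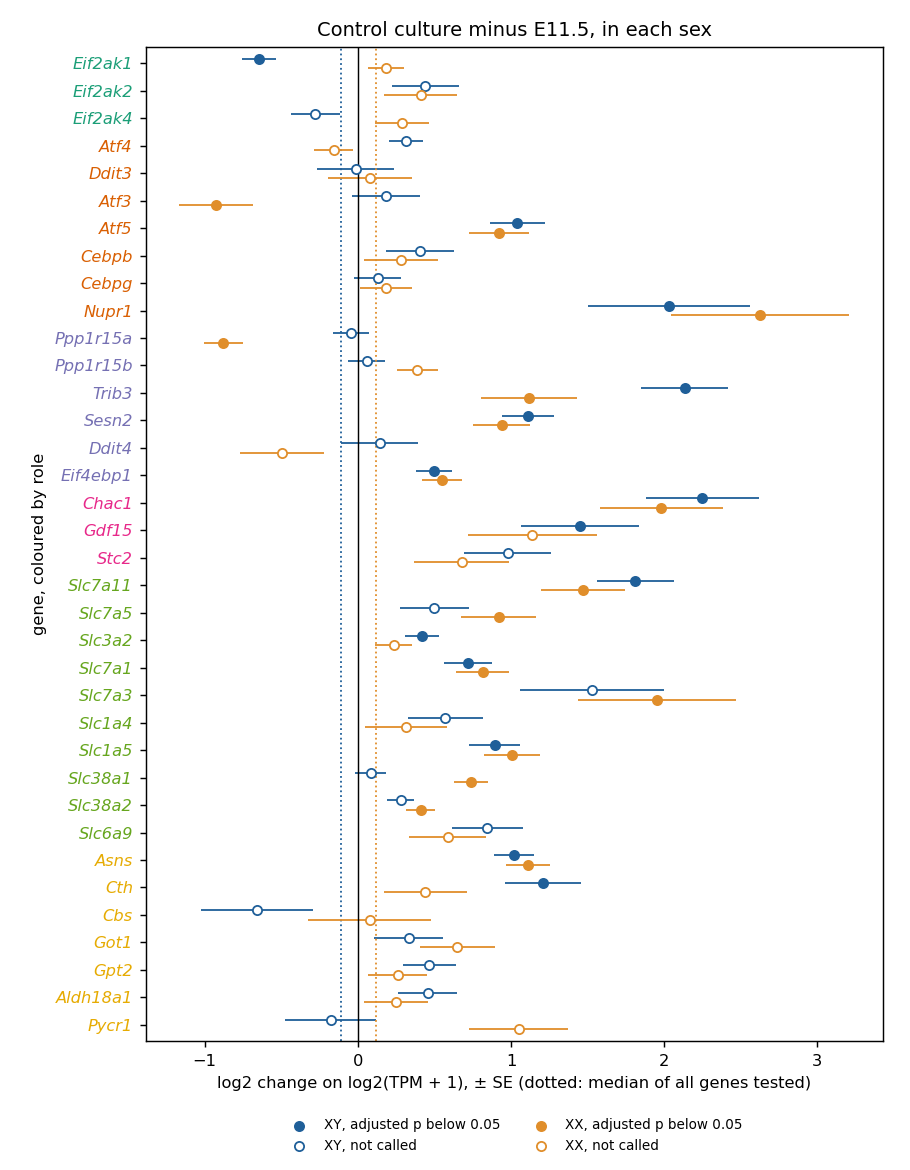
Log2 change of each member in culture against E11.5, for control XY (3 against 2 libraries) and control XX (2 against 2 libraries), with standard errors from limma. Asns is near 1 in each sex, while Ppp1r15a is -0.04 in XY and -0.88 in XX and Eif2ak1 is -0.65 in XY and 0.18 in XX.

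Between the sexes in culture, every called member was lower in XY. In control XY against control XX, 0 members were called higher and 7 lower, against 2.97% and 22.2% of all genes tested, so the number of lower members is near the background. At an unadjusted p below 0.05, 0 were higher and 11 lower. The libraries did not overlap for 1 member higher and 17 lower, against 12.3% and 41.4% of all genes. Markers moved too, with 3 of 8 erythroid, 3 of 7 macrophage and 5 of 6 neural markers called higher and 5 of 6 gonad markers called lower in control XY. The gonad markers had sums of 648.27 to 794.19 TPM in control XY and 1277.96 to 1349.78 TPM in control XX, and the part of these cells in the result was not tested. The median of all genes was -0.22, and 0.07 after median-of-ratios scaling, which left 3 members called.

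Asns had 121.28, 107.47 and 115.56 TPM in control XY, against 227.33 and 256.89 TPM in control XX, a log2 change of -1.07 ± 0.13 (adjusted p = 0.000546) or -0.85 relative to the median. Eif2ak1 had 35.58, 39.01 and 41.62 TPM in control XY, against 68.15 and 66.90 TPM in control XX (-0.79 ± 0.11, adjusted p = 0.000895; -0.57 relative to the median). Ppp1r15b had 43.23, 42.43 and 49.25 TPM in control XY, against 73.93 and 70.08 TPM in control XX (-0.67 ± 0.12, adjusted p = 0.0028; -0.45 relative to the median). These 3 did not overlap and were called under every alternative tried. Slc7a11, at 8.60, 8.88 and 7.27 TPM in control XY, against 17.41 and 18.31 TPM in control XX (-1.03 ± 0.25, adjusted p = 0.0116), lost its call under median-of-ratios scaling (0.133) and without either control XX library (0.0541 and 0.0620). Slc38a1 had 51.43, 50.09 and 52.53 TPM in control XY, against 72.06 and 70.25 TPM in control XX (-0.46 ± 0.10, adjusted p = 0.0071). Slc38a2 had 152.00, 150.87 and 160.51 TPM in control XY, against 207.63 and 224.71 TPM in control XX (-0.48 ± 0.09, adjusted p = 0.00291). Slc3a2, the remaining called member, had a log2 change of -0.32 ± 0.11 (adjusted p = 0.0497), which was 0.01 under median-of-ratios scaling, and its call ended with the replicate number as a block (0.0507). The Slc38a1 and Slc38a2 calls ended under median-of-ratios scaling (0.439 and 0.377), and that of Slc38a1 also ended without control XX replicate 1 (0.0528).

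At E11.5, 0 members were called higher and 5 lower in XY than in XX, against 1.09% and 1.2% of all genes tested (limma). The count was 1 with only the groups compared in the fit. At an unadjusted p below 0.05, 1 member was higher and 11 were lower. Without overlap, 4 members were higher and 15 lower in XY, against 22.4% and 22.1% of all genes. None of the markers of the cell types listed was called in this comparison, but several sums did not overlap. Gonad markers summed to 765.02 to 888.47 TPM in XY and 988.46 to 1179.38 TPM in XX. Endothelial markers summed to 197.77 to 198.1 TPM in XY and 257.25 to 316.34 TPM in XX. Erythroid markers were higher in XY (2460.72 to 3131.02 TPM against 1275.09 to 1791.27 TPM), as were mesonephric markers (104.91 to 123.96 TPM against 67.03 to 72.1 TPM). Their part in the results was not tested. Ppp1r15a had 47.86 and 49.69 TPM in E11.5 XY, against 110.60 and 99.23 TPM in E11.5 XX (-1.09 ± 0.13, adjusted p = 0.00129). It was the member called under every alternative. Asns had 49.01 and 63.94 TPM in E11.5 XY, against 124.67 and 99.92 TPM in E11.5 XX (-0.98 ± 0.14, adjusted p = 0.00594, and 0.0742 without E11.5 XX replicate 1). Atf3 had 6.52 and 11.12 TPM in E11.5 XY, against 21.16 and 27.44 TPM in E11.5 XX (-1.39 ± 0.24, adjusted p = 0.0179). The Atf3 call ended without E11.5 XY replicate 1 or either E11.5 XX library (0.0598 to 0.0711), although no libraries overlapped.

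Slc7a11 had 1.55 and 1.71 TPM in E11.5 XY, against 6.14 and 5.49 TPM in E11.5 XX (-1.37 ± 0.28, adjusted p = 0.0283). Slc3a2 had 52.22 and 48.30 TPM in E11.5 XY, against 80.52 and 63.65 TPM in E11.5 XX (-0.50 ± 0.12, adjusted p = 0.0499). Both chains of the cystine exchanger were thus called lower in XY at E11.5. The Slc7a11 call ended in 6 and the Slc3a2 call in 9 of the 12 fits that left out a library, with the highest adjusted p, 0.155 and 0.257, without E11.5 XX replicate 1. Atf4 had 176.55 and 173.81 TPM in E11.5 XY, against 228.60 and 270.78 TPM in E11.5 XX, without overlap, and did not pass the test (-0.50 ± 0.12, adjusted p = 0.0540).

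The sex difference changed with culture for 2 members. Subtracting the E11.5 sex difference from the cultured one gave -0.83 ± 0.16 for Eif2ak1 (limma, adjusted p = 0.0339) and 0.84 ± 0.17 for Ppp1r15a (adjusted p = 0.0433). Members called higher or lower were thus 1 and 1, against 0.192% and 1.14% of all genes. The median of this difference over all genes was -0.26. Eif2ak1 was lower in XY than XX in culture and not called at E11.5 (0.04 ± 0.12, adjusted p = 0.892), and Ppp1r15a was lower in XY at E11.5 and not called in culture (-0.25 ± 0.12, adjusted p = 0.139). Median-of-ratios scaling gave 1 higher and 0 lower, and a fit with the replicate number as a block gave 5 called members. Each call ended in 10 of the 12 fits that left out a library, up to an adjusted p of 0.122 for Eif2ak1 and 0.138 for Ppp1r15a, each without control XX replicate 1.

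**Figure D5:**
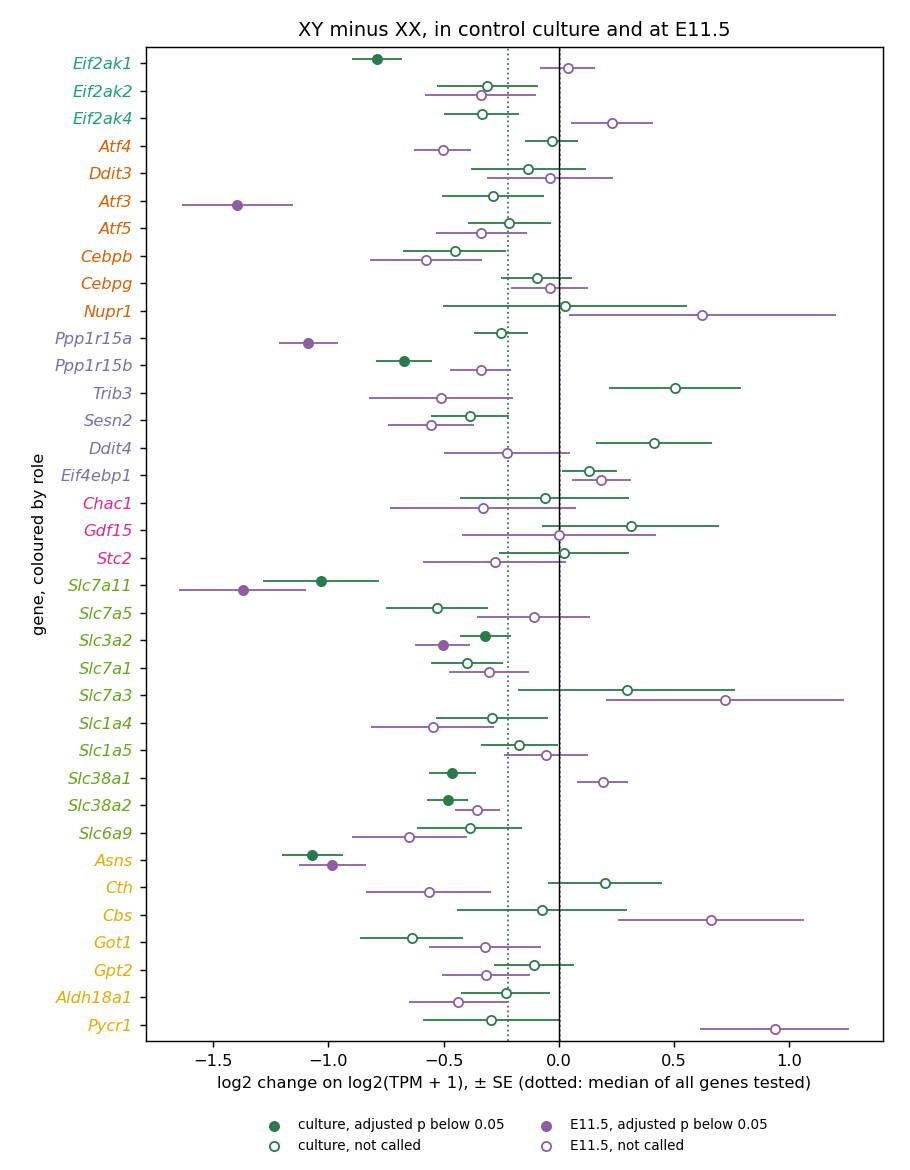
Log2 difference of each member in XY against XX, in culture (3 control XY and 2 control XX libraries) and at E11.5 (2 and 2 libraries), with standard errors from limma. Asns is near -1 in each, Eif2ak1 is -0.79 in culture and 0.04 at E11.5, and Ppp1r15a is -0.25 and -1.09.

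Dfo XY and control XX in culture were also compared. The Dfo libraries are those of the main comparison, so the values are given side by side and the results are not independent of it. In Dfo XY against control XX, 21 members were called higher and 5 lower, against 4.79% and 33.8% of all genes tested, and median-of-ratios scaling gave 23 and 2. All 6 gonad and 3 of 6 mesenchyme markers were called lower, and 5 of 8 erythroid and 5 of 7 macrophage markers higher, and their part in the results was not tested. The gonad markers summed to 491.76 to 557.81 TPM in Dfo XY and 1277.96 to 1349.78 TPM in control XX, and the erythroid markers to 1314.48 to 3091.34 TPM and 232.63 to 252.38 TPM. The 6 smallest adjusted p belonged to Eif4ebp1, Trib3, Ppp1r15a, Atf4, Atf3 and Ddit3. Trib3 had 90.10, 104.76 and 64.83 TPM in Dfo XY, against 5.89 and 4.03 TPM in control XX (3.87 ± 0.29, adjusted p = 3.16e-06). Atf4 had 624.51, 686.45 and 525.25 TPM in Dfo XY, against 218.80 and 226.85 TPM in control XX (1.45 ± 0.11, adjusted p = 4.24e-06). Control XX lay near the control XY values given above for Atf4, and below most of them for Trib3. Eif4ebp1 had 344.11, 360.99 and 301.58 TPM in Dfo XY, against 108.10 and 110.50 TPM in control XX (1.61 ± 0.12). Ppp1r15a had 176.34, 180.92 and 146.83 TPM in Dfo XY, against 53.58 and 59.67 TPM in control XX (1.55 ± 0.12). Atf3 had 86.51, 98.11 and 81.14 TPM in Dfo XY, against 10.85 and 13.77 TPM in control XX (2.76 ± 0.22). The same order held for Ddit3, with 236.06, 271.36 and 237.67 TPM in Dfo XY, against 31.94 and 42.28 TPM in control XX (2.72 ± 0.25).

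The members lower in Dfo XY than in control XX were Eif2ak1 (-1.13 ± 0.11), Slc38a1 (-0.85 ± 0.10), Asns (-0.63 ± 0.13), Slc7a11 (-1.09 ± 0.25) and Ppp1r15b (-0.40 ± 0.12). Asns, called higher with Dfo among XY gonads, was at 149.33 to 167.25 TPM in Dfo XY and 227.33 to 256.89 TPM in control XX (adjusted p = 0.0026). Under median-of-ratios scaling the calls for Asns (-0.14, adjusted p = 0.461), Slc7a11 (-0.64, 0.120) and Ppp1r15b (0.07, 0.638) ended, and the change of Ppp1r15b turned in sign. The Ppp1r15b call also ended without Dfo XY replicate 2 or either control XX library (0.0583 to 0.111). The calls for Eif2ak1 and Slc38a1 remained under every alternative.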

How the data were processed

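Expression was measured in 12 RNA-seq libraries of NR5A1(+) gonad cells in 5 groups, made with the SMART-Seq Stranded Kit per the labels' protocols. The deposited values are TPM, computed by the authors and given as 1 file per library. The submitters' processing notes name STAR 2.7.10b, RSEM, the mm10 build and R 4.1.2, and give no annotation or filter. Depth cannot be read back from TPM, so it is unknown for every library and no counting interval was computed.

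Groups were taken from the sample titles. Log2(TPM + 1) was fitted with limma 3.58.1 in R 4.3.3, with 1 coefficient per group, a variance trend and all 12 libraries. Genes with at least 1 TPM in at least 2 libraries were kept (16133), p-values were adjusted by Benjamini-Hochberg over all of them in each of the 7 contrasts, and genes with an adjusted p under 0.05 were called. The script was tested on simulated data. The members, the other lists, the tests and the naming rule were chosen with earlier results of these data known. Values in every library are given for members called with a log2 change of at least 1 in either direction in Dfo XY against control XY, for those called against the main direction, and elsewhere for the called members with the 6 smallest adjusted p. From every other list the called genes with the 3 smallest adjusted p are named for Dfo, and fewer elsewhere.

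Deviations of same-numbered control XY and Dfo XY libraries from their group means correlated across genes at r = 0.21, 0.12 and 0.34. Control replicate 1 with Dfo replicate 2 gave 0.14, and control replicate 2 with Dfo replicate 1 gave 0.18. Control replicate 3 gave -0.27 with Dfo replicate 1 and -0.18 with Dfo replicate 2. Dfo replicate 3 gave -0.26 with control replicate 1 and -0.22 with control replicate 2. Replicate 3 of both groups thus deviated in the same direction, away from replicates 1 and 2. These values do not settle whether the numbers mark pairs. The main fit had no term for the replicate number, which entered as a block in alternative settings only. In all, 23 alternative settings were run: other pseudocounts, filters and scalings, the replicate block, fewer groups, averaged or omitted replicates. Gene promoters came from RefSeq tables on GRCm38.p6.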

Additional observations from a re-analysis of the deposited data

Results flagged for a closer look

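The sex difference of 2 members was called as differing between culture and E11.5 by the interaction term of the fit. Each call ended in 10 of the 12 fits that left out a library, and the median of this term over all genes was -0.26. For Eif2ak1, the haem-regulated eIF2 kinase, the cultured sex difference less the E11.5 one was -0.83 on the log2 scale, from -0.79 in culture and 0.04 at E11.5. For Ppp1r15a, the inducible subunit of the eIF2 phosphatase, it was 0.84, from -0.25 in culture and -1.09 at E11.5. No group held the 4 libraries that a test for a single outlying value needs.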

How the results depend on the processing

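Of the 24 members called in Dfo XY against control XY, 16 kept their call under all 23 settings, among them Atf4, Ddit3, Atf3, Trib3, Chac1, Sesn2, Slc7a5 and Slc7a1. The 22 members called higher became 16 to 26 over these settings. With the replicate number as a block they were 22, and 26 with the block on the 6 cultured XY libraries alone, a setting chosen after seeing the data. Besides the calls named in the report, the block ended Nupr1 in XY culture against E11.5 (adjusted p = 0.0596) and Slc7a3 in Dfo XY against control XX (0.0546), and the block on the 6 libraries added Ppp1r15b, Slc7a3, Got1 and Aldh18a1.

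Called members in control XY culture against E11.5 XY, 14 in all, became 17 with median-of-ratios scaling, 18 without the 50 most abundant genes, 17 with the replicate block, 9 with only the groups compared, 6 with replicates 1 and 2 averaged and 8 to 13 without a library. In control XX culture against E11.5 XX, the 16 became 9 with median-of-ratios scaling, 4 with only the groups compared and 4 to 16 without a library. In control XY against control XX the 7 became 3 with median-of-ratios scaling, 3 without the 50 most abundant genes and 4 to 9 without a library. At E11.5 the 5 became 7 with the replicate block, 1 with only the groups compared, 3 with replicates averaged, 3 without Dfo XY replicates 1 and 2, and 1 to 6 without a library. For the interaction the 2 became 1 with median-of-ratios scaling, 1 without the 50 most abundant genes, 5 with the replicate block, 0 with only the groups compared, 0 with replicates averaged, 0 without Dfo XY replicates 1 and 2, and 0 to 3 without a library. The causes were not tested.

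Changes of sign under Dfo were seen in members that were not called. Eif2ak2 was 0.0078 and Pycr1 0.022 without Dfo XY replicates 1 and 2, and Slc7a11 0.083 with median-of-ratios scaling and 0.032 without the 50 most abundant genes. Leaving out a library gave -0.30 to 0.068 for Eif2ak2, -0.090 to 0.34 for Gdf15, -0.21 to 0.20 for Slc7a11 and -0.18 to 0.32 for Cbs. With median-of-ratios scaling, Slc3a2 was 0.0083 in control XY against control XX and Ppp1r15b 0.073 in Dfo XY against control XX. The depth is unknown, so low members such as Cbs and Gdf15 carry an error that could not be computed.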
